A study of Mus musculus with 8 samples.

Results

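The genes described here encode 10 proteins that keep endogenous retroviruses silent in mouse embryonic stem (mES) cells: Trim28, Setdb1, Atf7ip, Fam208a, Atrx, Daxx, Morc3, Smarcad1, Hells and Zfp809. They were chosen by name for this role, not by any measured value, but with earlier results of these data known. All 10 were found among the 17597 genes of the deposited table, which also lists 1097 subfamilies counted as transposable elements. The RNA came from 8 libraries of mES cells of Cast x 129S background in which METTL3, the enzyme that places N6-methyladenosine (m6A) on messenger and noncoding RNA, is fused to FKBP12 F36V, a domain that marks the protein for degradation when the small molecule dTAG-13 is added. Of these, 4 libraries were untreated and 4 received dTAG-13 for 26 hours, and in each group 2 replicates came from clone C3 and 2 from clone H5. All 8 libraries carried the degron and a TetOn promoter in place of the endogenous Xist promoter, and no doxycycline was given. The labels place this promoter on the 129S allele, whereas the study describes these lines as having it on the Cast X chromosome. The cells grew on mitomycin-inactivated fibroblast feeders.

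The question of the design is how RNA levels differ between dTAG-13-treated and untreated cells. The values used here cannot answer it for the silencing genes. The only level per gene was the authors' mean of normalized read counts over all 8 libraries, called the mean count here, with treated and untreated cells together. No value per library was used, so no level below has a replicate error, no difference was tested, and the depth of each library is unknown. All statements on levels are descriptions of these pooled means. A degron removes protein, so the Mettl3 RNA (mean count 684) does not check the labels.

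Mammalian genomes carry a large number of retroviral copies, and in mES cells most are held in heterochromatin. A KRAB zinc finger protein such as ZFP809 reads the retroviral DNA and brings in KAP1 (the product of Trim28), which recruits SETDB1 to trimethylate histone H3 on lysine 9. ATF7IP stabilizes SETDB1, the HUSH complex spreads and maintains the mark, ATRX and DAXX deposit histone H3.3, and the chromatin ATPases MORC3, SMARCAD1 and HELLS (also known as LSH) remodel or compact the chromatin.

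The transcripts of these genes differ widely in GGACT, the core letters of the sequence that the METTL3 complex methylates. The windows below, read from the transcript with the longest coding sequence, show the gene with the highest density of matches on that transcript (Zfp809), the gene next to it (Daxx), the gene with the most abundant RNA (Trim28) and the gene with the lowest density (Morc3). On the longest transcripts instead, Daxx had the highest density and Zfp809 stood below Daxx, Setdb1 and Atrx. Each window is read 5′ to 3′ on the transcript from the GENCODE vM21 transcript sequences (GRCm38, the assembly also called mm10). The match is in capitals with 8 bases on either side, and all the genes shown lie on the plus strand. A match is a run of letters and not a measured m6A site.
Zfp809, exon 2, coding sequence, chr9:22235049-22235053: gtagccgtGGACTtcaccttg
Zfp809, exon 5, coding sequence, chr9:22238682-22238686: gaatgtaaGGACTgcgagaaa
Zfp809, exon 6, coding sequence, chr9:22243085-22243089: atctgactGGACTggcaattt
Zfp809, exon 6, coding sequence, chr9:22243127-22243131: accaacatGGACTtgggcata
Zfp809, exon 6, coding sequence, chr9:22243149-22243153: ggcattatGGACTttgtgaag
Zfp809, exon 6, 3′ UTR, chr9:22243301-22243305: gccgtcctGGACTctaaccct
Daxx, exon 3, coding sequence, chr17:33911569-33911573: ggcctcaaGGACTcgcggttc
Daxx, exon 3, coding sequence, chr17:33911759-33911763: gagttgaaGGACTgctcttct
Daxx, exon 6, coding sequence, chr17:33913377-33913381: aaaagagaGGACTgacagaga
Daxx, exon 6, coding sequence, chr17:33913710-33913714: tgggctctGGACTgttaggaa
Daxx, exon 7, coding sequence, chr17:33913957-33913961: acaagggtGGACTctcccagc
Trim28, exon 12, coding sequence, chr7:13029478-13029482: actactgaGGACTacaatctg
Trim28, exon 12, coding sequence, chr7:13029537-13029541: tcaggctgGGACTgtgccacc
Morc3, exon 1, 5′ UTR, chr16:93832247-93832251: cccgcggcGGACTcgtagcct

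All 10 silencing genes lay above the median gene in level, and 9 of 10 lay above the upper quartile of genes. To compare genes of different size, each mean count was divided by the length of the gene's longest annotated transcript in kb, which was possible for 17389 genes. The median gene had 52.6 mean counts per kb, with quartiles at 4.86 and 236. The silencing genes ranged from 102 to 5810 mean counts per kb with a median of 756. Their mean counts summed to 62019, which was 0.426% of the mean counts of all genes, and Trim28, Atrx and Hells together held 67.5% of that sum. The highest and the lowest silencing gene differed 57.1-fold per kb and 28.7-fold in mean count.

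**Figure D1:**
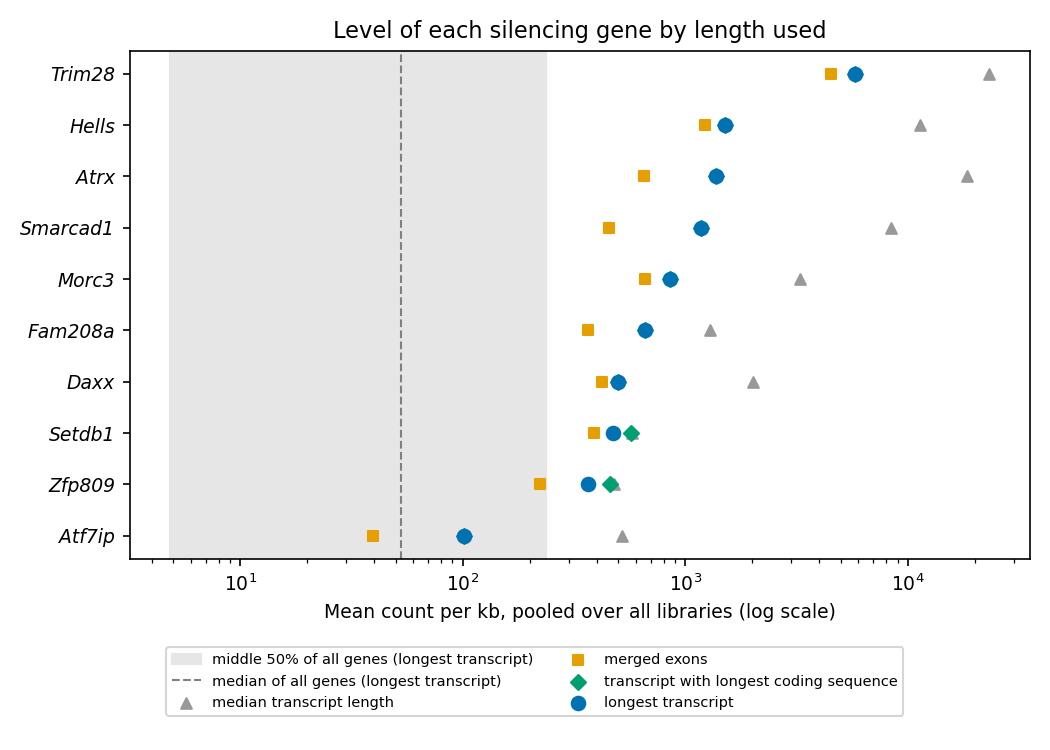
Mean count per kb of each silencing gene (horizontal log axis, authors' mean over all 8 libraries) under 4 definitions of transcript length, with the middle 50% and the median of all genes shaded and dashed for the longest transcript. Trim28 is the highest under each definition (5810 per kb of its longest transcript), while Atf7ip moves from 39.5 per kb of merged exons to 523 per kb of median transcript length.

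Trim28 encodes KAP1, the corepressor through which KRAB zinc finger proteins act. It spans chr7:12999114-13031035 on the plus strand and had a mean count of 18853, or 5810 per kb, which placed it 123rd of 17389 genes and 110-fold above the median gene. It was the most abundant silencing gene under each of the 4 length definitions and in mean count, where it ranked 40th of 17597 genes. The partners through which KAP1 acts were also abundant. Of the 8 corepressor genes listed (nucleosome remodelling and deacetylase subunits, the demethylase LSD1, its partner ZMYM2, the SUMO pathway and the chromatin protein RIF1), all 8 lay above the upper quartile of genes, with Sumo2 (7735 per kb) and Rif1 (2503 per kb) highest and Hdac2 (911 per kb) and Zmym2 (406 per kb) lowest. Among these partners only Sumo2, which encodes a small protein modifier attached to KAP1, exceeded Trim28 per kb of longest transcript. The order turned with the scale: in mean count Rif1 (21301) exceeded Trim28, whereas Sumo2 (8130) stood below it.

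Setdb1, the histone H3 lysine 9 methyltransferase that KAP1 recruits, lies at chr3:95323525-95357202 on the minus strand. Its mean count was 2665, or 472 per kb, at the 85.7th percentile of genes. Exons of Cers2 and Gm37500 on the opposite strand cover 4.73% of the exon bases of Setdb1. If reads were not counted by strand, part of this count may belong to them. The level of Trim28 per kb was 12.3-fold that of Setdb1, and the ratio ran from 7.07 in mean count to 39.9 with the median transcript length, so Trim28 was higher on each scale. Other histone H3 lysine 9 methyltransferases fell on both sides of Setdb1. Ehmt2, which encodes G9a, had 922 per kb, Ehmt1 (its partner GLP) 352, Suv39h2 315, Setdb2 173 and Suv39h1 146. Ehmt2 exceeded Setdb1 on each scale, with Setdb1 at 0.512 of Ehmt2 per kb of longest transcript and between 0.168 and 0.718 on the others. Setdb1 exceeded Suv39h1 and Setdb2 on each scale, whereas its order against Ehmt1 and Suv39h2 turned with the median transcript length (ratios of 0.428 and 0.957).

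Atf7ip, the partner that protects SETDB1 from degradation and holds it in the nucleus, was the lowest silencing gene per kb of longest transcript. It spans chr6:136506167-136610862 on the plus strand, and its mean count of 819 over a transcript of 8059 bases gave 102 per kb, at the 60.2nd percentile and 1.93-fold above the median gene. It was the only silencing gene to fall below the median gene under any definition, at the 49.9th percentile with merged exons. Setdb1 stood 4.64-fold above Atf7ip per kb, but the ratio was 1.11 with the median transcript length and 9.84 with merged exons. Atf7ip has 12 annotated transcripts, whose merged exons cover 20726 bases.

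Fam208a, the older name of Tasor, encodes the scaffold of the HUSH complex, which also holds MPP8 (Mphosph8) and periphilin (Pphln1). It lies at chr14:27428834-27483555 on the plus strand, with a mean count of 4998 and 659 per kb, at the 89.8th percentile. Exons of Ccdc66 on the opposite strand cover 12.9% of the exon bases of Fam208a, and it is not known if reads were counted by strand, so part of this count may belong to Ccdc66. Its partner Mphosph8 had 692 per kb and Pphln1 134 per kb. Mphosph8 was higher than Fam208a under each length definition, with Fam208a at 0.951 of it per kb of longest transcript and 0.393 with the median transcript length. Only in mean count was Fam208a the higher, at 2.46-fold. Fam208a exceeded Pphln1 on each scale (4.90-fold per kb). Morc2a, whose product works with HUSH, had 389 per kb and stood below Fam208a except with the median transcript length, where the ratio was 0.491.

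MORC proteins are ATPases that compact chromatin. Morc3 (chr16:93832121-93876073, plus strand) had a mean count of 3568 and 854 per kb, at the 92.2nd percentile. Within the family, Morc1, which acts on retroviruses in the germline, had 1237 per kb and Morc4 98.8 per kb. Morc3 exceeded Morc2a on each scale, by the least with the median transcript length (1.24-fold).

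Atrx and Daxx form the complex that deposits histone H3.3 in heterochromatin, and the pooled mean of Atrx was the higher on each scale used. Atrx, the remodelling ATPase (chrX:105797615-105929403, minus strand), had a mean count of 14191 and 1381 per kb, at the 95.6th percentile. Daxx, the H3.3 chaperone (chr17:33909414-33915590, plus strand), had a mean count of 1332 and 498 per kb, at the 86.3rd percentile. Atrx was 2.77-fold higher per kb, 1.54-fold with merged exons and 10.7-fold in mean count. The histone genes that supply their substrate, H3f3a and H3f3b, had 3809 and 2555 per kb, the highest values of the 10 genes listed for heterochromatin protein 1, histone chaperones and histone H3.3. The lowest were Hira (296 per kb), the chaperone that places H3.3 outside heterochromatin, and Chaf1a (247 per kb), a subunit of chromatin assembly factor 1. All 10 lay above the upper quartile of genes. These histone genes have processed copies in the genome, so counts of H3f3a and H3f3b are uncertain.

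Hells and Smarcad1 encode remodelling ATPases of the SNF2 family. HELLS is needed for DNA methylation of repeats and SMARCAD1 is recruited by KAP1. Hells (chr19:38930915-38971051, plus strand) had a mean count of 8848 and 1508 per kb, at the 96.0th percentile. It was second to Trim28 per kb of longest transcript, but Atrx was higher in mean count and with the median transcript length. Smarcad1 (chr6:65042583-65116061, plus strand) had a mean count of 6086 and 1178 per kb, at the 94.6th percentile. Hells was 1.28-fold higher per kb and 2.69-fold higher with merged exons. Among the 5 DNA methylation genes, Dnmt3l had 2357 per kb, Uhrf1 1631, Dnmt1 1089, Dnmt3b 1086 and Dnmt3a 240. Hells exceeded the maintenance methyltransferase gene Dnmt1 on each scale (1.38-fold per kb), while its order against Uhrf1, the Dnmt1 recruiter, turned with the scale (0.924 per kb and 1.51 in mean count).

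Zfp809 encodes the KRAB zinc finger protein that binds the primer binding site shared by murine leukaemia viruses and related endogenous elements. It lies at chr9:22225714-22243354 on the plus strand, with a mean count of 658, the lowest of the silencing genes, and 365 per kb, at the 81.9th percentile. Of 321 protein-coding genes with numbered Zfp names, 33 had a higher level per kb of longest transcript, and the median was 78.9 per kb. This set was made by name and not by KRAB domain, and the rank within it was not taken on the other scales. Over all genes, the percentile of Zfp809 was lower in mean count, with the median transcript length and with merged exons. It was higher with the transcript of the longest coding sequence. The level of Trim28 was 15.9-fold that of Zfp809 per kb and 28.7-fold in mean count. Another 9 KRAB zinc finger genes were listed as possible binders of retroviruses, which was not tested here for any of them. Of these 9 genes, 8 lay above the median gene and 5 above the upper quartile. Zfp568 (970 per kb) and Zfp961 (544 per kb) were highest and stood above Zfp809. Zfp708 (62.3 per kb) and Gm15446 (30.5 per kb) were lowest and stood below it. Zinc finger genes have near-identical relatives, and reads that align to more than 1 place were dropped by the authors, so these levels may be too low by an unknown amount.

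**Figure D2:**
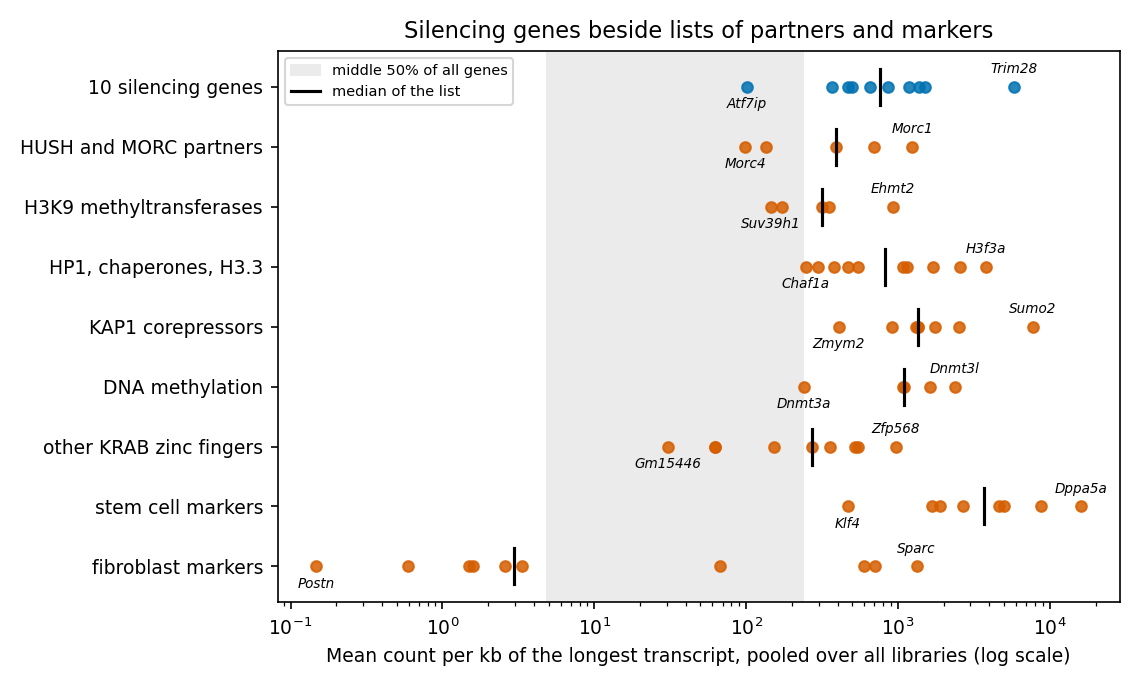
Mean count per kb of the longest transcript (horizontal log axis, authors' mean over all 8 libraries) for each silencing gene and each gene of 8 lists, with black bars at the list medians, the middle 50% of all genes shaded and the highest and lowest gene of each list named. The silencing genes have a median of 756 per kb, beside 817 for heterochromatin protein 1, chaperones and H3.3, 1353 for KAP1 corepressors and 270 for other KRAB zinc fingers.

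The stem cell label was checked against marker genes. All 8 embryonic stem cell markers lay above the upper quartile of genes, between 467 per kb for Klf4 and 16142 for Dppa5a, with Pou5f1 second highest at 8762 and Sox2 second lowest at 1674. Of 10 fibroblast markers, Sparc (1327 per kb) and Vim (708 per kb) were highest, and Lum (0.594 per kb) and Postn (0.147 per kb) lowest, with 4 of 10 above the median gene and 3 of 10 above the upper quartile of genes. The markers went different ways: Fn1, which encodes fibronectin, was the third above the upper quartile (594 per kb, mean count 4941), while the fibrillar collagen genes Col1a1, Col1a2 and Col3a1 had mean counts of 19.8, 13.8 and 8.38. The part of feeder RNA in the levels of the silencing genes was not tested. In bulk RNA, fewer cells of a type and less RNA per cell cannot be told apart.

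Most but not all of the silencing genes also have a long internal exon and many exons, features that the choice by name did not use. These were read from the annotated transcript with the longest coding sequence, because the longest transcript of Setdb1 carries no coding sequence and that of Zfp809 only 180 coding bases. The longest internal exon of each silencing gene exceeded the median of 209 bases over protein-coding genes in 10 of 10 cases, and the upper quartile of 325 bases in 8 of 10. Atrx had the longest, at 3014 bases, followed by Atf7ip with 1676 bases, and Hells the shortest, at 228 bases. Read from the longest transcripts instead, Zfp809 dropped to the 22.5th percentile of longest internal exons (127 bases). Exon number exceeded the median of 9 in 8 of 10 genes, from 15 in Atf7ip to 35 in Atrx, with Daxx (8 exons) and Zfp809 (6 exons) below it. The transcripts were also long, with 6 of 10 above the upper quartile of length. In exons per kb 6 of 10 lay above the median of 3.45 and 0 of 10 above the upper quartile of 5.28. Exon number and exon length were not compared with genes of like transcript length. The GC content ran from 37.7% in Hells to 59.6% in Trim28, beside a median of 50.7% over protein-coding genes, and 6 of 10 genes lay below the lower quartile of 45.9% while Trim28 and Daxx (56.3%) lay above the upper quartile of 55.4%.

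GGACT was searched on the transcript strand only. It was found in 91.2% of 16338 protein-coding transcripts, with a median of 3 matches per transcript and 1.06 per kb. The 10 silencing transcripts held 55 matches in all, of which 42 lay in coding sequence, 10 in 3′ UTRs and 3 in 5′ UTRs. As a group they were not dense in the motif: 4 of 10 lay above the median density and 6 below it. Zfp809 had the highest density, with 6 matches in 1425 bases or 4.21 per kb, at the 99.6th percentile of protein-coding genes and above each of the other numbered Zfp genes, whose median with Zfp809 included was 0.847 per kb. This value depends on the transcript read. The longest Zfp809 transcript, of 1800 bases and with 180 coding bases, holds 2 matches, or 1.11 per kb, at the 54.2nd percentile of the longest transcripts. Which of these transcripts mES cells make was not measured here.

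Daxx followed with 5 matches or 1.87 per kb, at the 84.6th percentile, and Setdb1 with 8 matches or 1.72 per kb, at the 80.4th percentile (1.59 per kb on its longest transcript). Atrx held 13 matches in 10275 bases, or 1.27 per kb, and Atf7ip 8 matches, or 0.993 per kb. Hells had 0.852 per kb, Smarcad1 0.774 and Trim28 0.616. Fam208a (3 matches, 0.395 per kb) and Morc3 (1 match, 0.239 per kb) were the least dense, at the 13.7th and 9.50th percentiles.

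**Figure D3:**
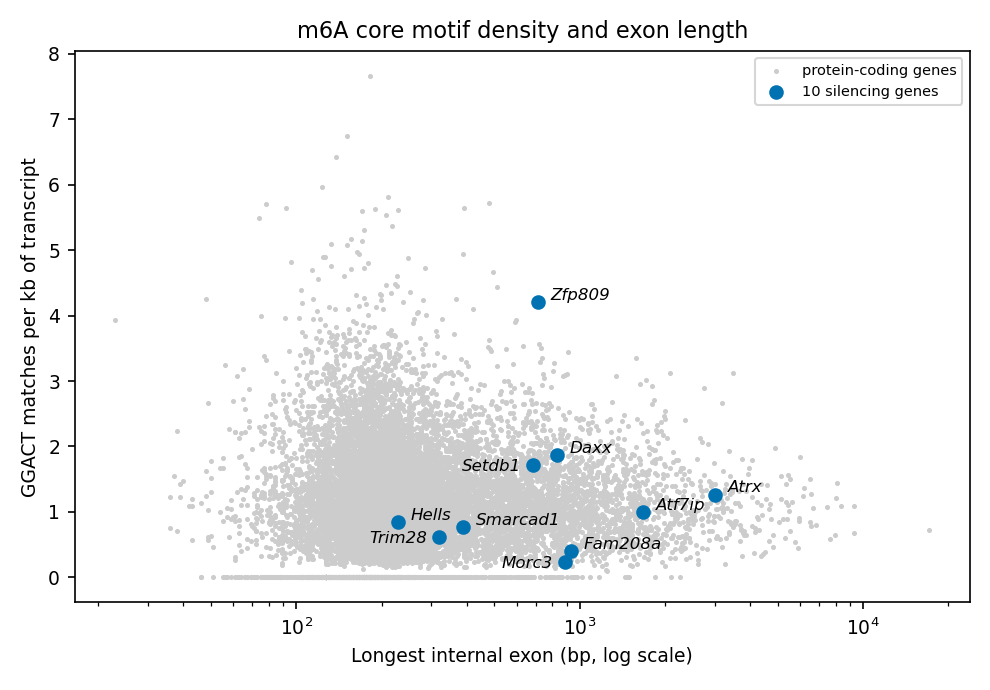
GGACT matches per kb (vertical axis) against the longest internal exon in bases (horizontal log axis), read from the transcript with the longest coding sequence, for protein-coding genes with an internal exon (grey) and the 10 silencing genes (blue). Zfp809 stands at 4.21 matches per kb with an internal exon of 712 bases, while Morc3 and Fam208a have internal exons of 889 and 929 bases and 0.239 and 0.395 matches per kb.

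Transposable elements, which include the endogenous retroviruses, were counted by subfamily and summed over all copies in the genome. Their mean counts are therefore not per length and cannot be set against those of genes. They also do not separate transcription of the elements themselves from reads of element copies that lie inside transcribed genes. Which subfamilies the silencing genes act on was not measured here. Long terminal repeat (LTR) elements made up 23.4% of the mean counts of all entries counted as transposable element subfamilies. Those entries include 1 of class RNA (16.0% of the total) and 7 of class Satellite (3.98%), which are not transposable elements. ERVK, the family of IAP and ETn elements, held 52.5% of the LTR sum. Of the 24 retrovirus subfamilies listed, MMETn-int (70915) and RLTR1B-int (42940) had the highest mean counts and ranked 1st and 2nd of 646 LTR subfamilies. IAPLTR1a_Mm (140) and MuRRS-int (134) had the lowest. The 8 IAP entries summed to 7524, of which IAPEz-int, the coding region of IAP, held 5807. Reads with more than 1 alignment were dropped by the authors, so young subfamilies with near-identical copies, IAP among them, are undercounted and the order of subfamilies may follow how alike their copies are. The part of this in the order was not tested.

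**Figure D4:**
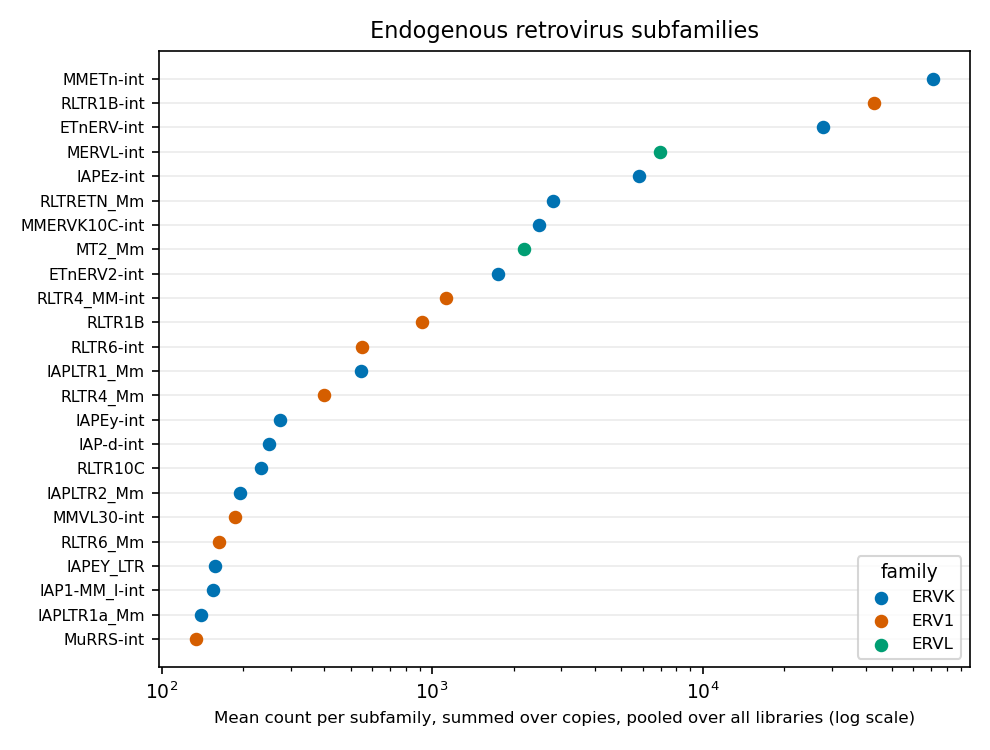
Mean count of each of the 24 listed retrovirus subfamilies (horizontal log axis, summed over genomic copies, authors' mean over all 8 libraries), coloured by family. MMETn-int of ERVK is highest at 70915 and MuRRS-int of ERV1 lowest at 134.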

How the data were processed

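Total RNA libraries (8) were described by their labels as RNA of mES cells. The labels conflict on the fraction: their extraction protocol is for chromatin RNA, but the molecule is given as total RNA, which the methods also state. The authors removed ribosomal RNA reads with bowtie2, aligned pairs with STAR to mm10 with strain variants masked, kept uniquely placed reads, removed duplicates with Picard and counted genes and element subfamilies with TEtranscripts at default parameters. The library kit was a stranded one and the deposited values carry the word reverse in their name, but the methods state default counting parameters. It is therefore not known if reads were counted by strand. The deposited signal column holds the authors' mean over all libraries of counts scaled by size factors. The other 5 columns hold the authors' own comparison of the groups (a log2 fold change, its standard error, a statistic and its p-values) and were not used.

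Mean counts were divided by transcript length (GENCODE vM21, GRCm38). Of 17597 gene names, 16662 matched directly and 727 through an older symbol, while 170 had no match and 38 several. All percentiles are over genes of the table. Depth per library is unknown. The calculations used Python with pandas and numpy and were tested on simulated data.

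The silencing genes and all lists were chosen with earlier results of these data known. All 10 silencing genes are named. Of each list the 2 highest and 2 lowest genes are named, and lists of 5 or fewer are named whole. Fn1, the collagen genes and IAPEz-int were named outside this rule after their values were seen. The GGACT motif, and the use of transcripts with the longest coding sequence for it, were chosen after the table was seen. Promoter windows were searched for a few motifs and not reported, since no value here bears on them.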

Additional observations from a re-analysis of the deposited data

How the results depend on the processing

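With another transcript length, another set of ranked genes or the mean count in place of the level per kb, between 9 and 10 of the silencing genes lay above the median gene and between 7 and 9 above the upper quartile. Over genes and all entries counted as transposable elements together, the silencing genes held 0.381% of the mean counts, beside 0.426% over genes alone. Of 70 percentiles of single silencing genes recomputed, 62 moved beyond the 95% binomial interval of the percentile, which covers the number of ranked genes only. Atf7ip moved over the widest range, from the 29.9th percentile when genes under a mean count of 100 were dropped to the 75.8th in mean count, and Trim28 stayed between the 98.8th and 99.8th. The length of the transcript with the longest coding sequence was added after seeing the data. The planned normalization, low-count filter, replicate block and left-out libraries of a test between the groups were not run, because only a mean over all libraries was used. No paired analysis was possible because no column holds values of single libraries.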
